A study of Mus musculus with 3 samples.

Results

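Adipoq and Cp are 2 of the 125 targets with a molecule in at least 1 of 3 targeted single-cell RNA-seq libraries, all made from the bone marrow (BM) of mice. They were taken by symbol in every library. All animals were C57/B6 wild type. E18.5 EC holds endothelial cells (ECs) sorted from the marrow of E18.5 embryos, E18.5 BM cells holds fetal marrow cells left after magnetic removal of lineage-positive mature haematopoietic cells, and Adult BM cells holds adult marrow cells prepared by lineage depletion. For adult marrow the methods also describe removal of cells with CD71, CD117, CD45 and Ter119 under another kind of library, and whether it was done for this one is not stated, so the share of stromal cells, and with it any whole-library level, may depend on it. The adult age is not stated in the labels, each library is a pool of animals, and each group is 1 library, so no test across samples is given and stage cannot be told apart from library, preparation and depth. The EC gate is given as CD31 with endomucin in the description of the series and as CD31 in the methods, and which of these applied was not settled here. Of the cells of that library, 74.5% were endothelial-like and 20.1% haematopoietic-like by marker genes, so the label held for most of its cells and not for all.

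Adiponectin, the product of Adipoq, is a hormone secreted by adipocytes that acts on glucose and fatty acid metabolism. In adult marrow its transcript also marks reticular stromal cells with a bias towards the fat lineage, which surround sinusoids and secrete the chemokine Cxcl12 and the stem cell factor Kitl, both required by haematopoietic stem cells, and which carry the leptin receptor Lepr. Ceruloplasmin, the product of Cp, is a copper-bound ferroxidase that oxidises iron released from cells so that transferrin can bind it. It is best known as a plasma protein from liver, and reticular marrow cells also transcribe it.

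Both genes were read through an amplicon near the 3′ end of 1 transcript, so the deposited counts concern that end only. In the GENCODE annotation of GRCm38, Adipoq lies on the plus strand at chr16:23146536-23158028, with 3 exons and a last exon of 955 bases in which the coding sequence ends. Cp lies on the plus strand at chr3:19957054-19993138, with 19 exons and a last exon of 630 bases in which the coding sequence ends. Of 16 annotated Cp transcripts 8 are coding, and 4 coding ones end past the one named in the files, so which Cp isoforms entered the count is not known. The sequences just before the start site are shown because the results turn on when and where these genes gave transcripts. They are 150 bases from RefSeq windows of GRCm38.p6 on the plus strand, at chr16:23146386-23146535 for Adipoq and chr3:19956904-19957053 for Cp, written 5′ to 3′, and capitals mark CCAAT on either strand.
Adipoq: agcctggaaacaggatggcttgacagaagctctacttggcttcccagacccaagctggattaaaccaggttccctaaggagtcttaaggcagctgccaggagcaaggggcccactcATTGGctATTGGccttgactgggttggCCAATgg
Cp: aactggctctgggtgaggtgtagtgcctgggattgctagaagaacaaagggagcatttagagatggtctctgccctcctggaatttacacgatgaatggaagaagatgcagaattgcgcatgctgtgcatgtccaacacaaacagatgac
The Adipoq window held CCAAT 3 times, at -34 and -27 on the minus strand and at -7 on the plus strand, counted from the start site. No match to CCAAT, to TATAAA or to TTGCGCAA and its looser form TTGCNNCAA was found in the Cp window on either strand. Before a second RefSeq start site of Cp, 195 bases downstream, a script found TATAAA at -25 on the plus strand and at -27 on the minus strand, these matches overlapping, and CCAAT at -118. Over 32851 promoter windows of 300 bases, 37.4% held CCAAT, 13.6% TATAAA, 2.08% TTGCNNCAA and 0.183% TTGCGCAA, so CCAAT and TATAAA are common in such windows. These are matches of letters and not binding sites.

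Levels below are molecules of a gene per 10000 molecules of all panel targets, with exact Poisson 95% intervals. Molecules were counted with unique molecular identifiers (UMIs), and every interval, ratio interval and limit covers counting error only. Where a count was 0, the limit given is that of 3 molecules or 3 cells. The libraries held 4038, 12844 and 7939 cells that passed the filter, listed as E18.5 EC, then fetal BM, then adult BM, with a median of 83, 97 and 242 molecules per cell. Cell barcodes were shared by 58 cells between E18.5 EC and E18.5 BM cells, by 38 between E18.5 EC and Adult BM cells and by 113 between the E18.5 and adult BM libraries, and 0 of them had Cp in both. Each cell was placed in 1 of 8 classes by the listed markers that held the largest share of its molecules, and neither Adipoq nor Cp was a marker. Classes are called reticular-like (Cxcl12, Lepr, Kitl), osteoblast-like (the osteocalcin family genes Bglap, Bglap2 and Bglap3, the 3 of 7 listed markers with values here), fibroblast-like (Aspn, Postn, Ccn3), mural-like (smooth muscle and pericyte genes such as Acta2 and Rgs5), endothelial-like, haematopoietic-like, osteoclast-like and chondrocyte-like.

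Adipoq was barely detected, with 1 molecule in all, and its level could not be compared between cell types. In E18.5 EC and E18.5 BM cells the files listed Adipoq in 0 cells, which allows at most 0.0693 and 0.0163 molecules per 10000 and 0.0743% and 0.0234% of cells with a UMI. In Adult BM cells 1 molecule remained after error correction, supported by 17 reads, a level of 0.00159 (4.02e-05-0.00884) per 10000. It lay in a reticular-like cell with 535 molecules in all, of which 313 were Cxcl12, 21 Kitl, 5 Lepr and 2 Cp, and Cxcl12 made up 58.8% of the cell's molecules other than Adipoq and Cp. A second adult cell, osteoblast-like with 8506 molecules of which 2921 were Bglap3, had 1 raw Adipoq molecule with 1 read that the correction removed. With 1 molecule among 2805 reticular-like cells, where 3 molecules would be a level of 0.0252, and 0 in the osteoblast-like, fibroblast-like and mural-like classes, every count was at or under the limit and no ratio of Adipoq is given. The low count concerns this amplicon at this depth, and how well it captures the transcript was not tested.

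Cp was the gene of the pair that the libraries measured well, and most of its molecules lay in reticular-like cells of the adult library. Adult BM cells held 8124 Cp molecules in 2691 cells (33.9% of cells), a level of 12.9 (12.6-13.2) per 10000, with 19.8 reads per molecule. E18.5 BM cells held 51 molecules in 28 cells (0.218%), a level of 0.277 (0.207-0.365), and E18.5 EC held 5 molecules in 5 cells, a level of 0.115 (0.0375-0.269). The adult level was thus 46.4 times (35.3-62.4) that of the fetal BM library, while the 2 fetal libraries differed by less than counting error (E18.5 EC over E18.5 BM cells 0.416, 0.130-1.04). Over whole libraries, 28 of 116 targets (24.1%) were at least 4-fold lower in the fetal than in the adult BM library, Cp among them, and 37.1% were at least 4-fold higher. When each cell was thinned to 50 molecules, leaving out 826, 2266 and 194 shallower cells in the order of libraries above, Cp was seen in 9.32% of adult cells, 0.0378% of fetal BM cells and 0.0934% of E18.5 ECs. Fewer reticular cells and less Cp per cell both enter a whole-library level, and the classes are taken apart next.

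Reticular-like cells carried most of the adult Cp. The 2805 reticular-like cells held 6258 of the 8124 molecules (77.0%), at 52.5 (51.2-53.8) per 10000, and 77.0% of them had a Cp UMI. In this class Cxcl12 stood at 5545 and Kitl at 426 per 10000, and Kitl was seen in 98.0% of cells and Lepr in 85.9%. These 3 genes placed cells in the class, so their high levels follow from the rule and are no separate evidence for its name. Unassigned cells followed at 15.3 (14.4-16.2), then mural-like cells at 4.46 (3.54-5.55), endothelial-like cells at 3.91 (3.09-4.89), fibroblast-like cells at 3.38 (2.23-4.92) and osteoblast-like cells at 2.46 (2.24-2.70). In haematopoietic-like cells, which serve as the background, Cp was at 0.885 (0.495-1.46) and in 0.836% of cells at a median depth of 90 molecules, against a median of 374 in reticular-like cells. Chondrocyte-like cells were lowest, at 0.494 (0.399-0.604). Per panel molecule, mural-like, endothelial-like and fibroblast-like cells did not separate beyond their intervals (fibroblast-like over mural-like 0.758, 0.471-1.19), nor did osteoblast-like from fibroblast-like cells (0.728, 0.494-1.12). Taken per 10000 molecules outside all marker lists, osteoblast-like cells were instead the highest of these classes, at 29.6 (26.9-32.4). Mural-like cells followed at 16.04 (12.72-19.97), endothelial-like cells at 8.56 (6.75-10.69) and fibroblast-like cells at 4.68 (3.09-6.82). The order of these classes thus depends on whether marker molecules stand in the total.

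**Figure D1:**
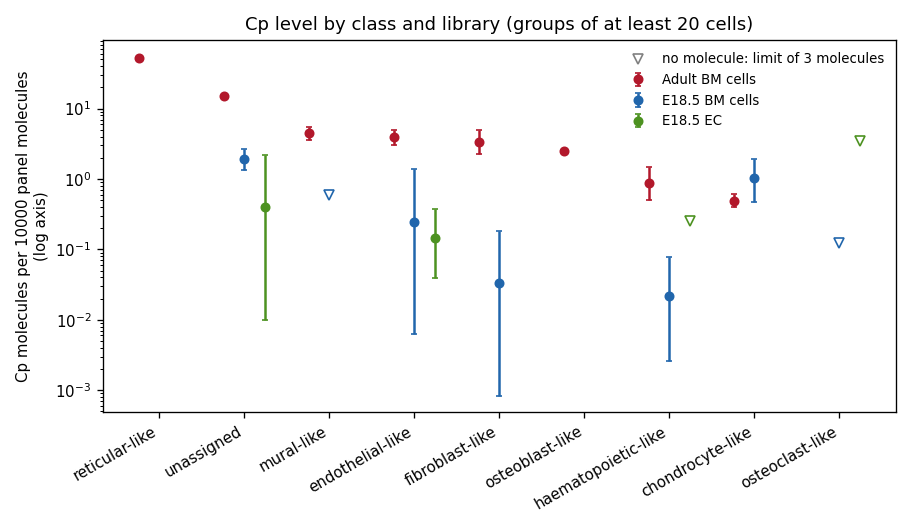
Cp molecules per 10000 panel molecules (log axis) for each class and library with at least 20 cells, with exact Poisson 95% intervals; open triangles give the limit of 3 molecules where none was counted. Adult reticular-like cells at 52.5 stand above every other class, and the measured fetal levels lie at 1.90 or less.

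With each cell thinned to 50 molecules, Cp was seen in 21.9% of reticular-like cells, 5.61% of osteoblast-like, 2.26% of fibroblast-like, 2.13% of mural-like, 1.60% of endothelial-like and 0.408% of haematopoietic-like cells, with 7, 0, 3, 1, 76 and 84 cells left out. Thinned to 200 molecules the shares were 61.3%, 11.2%, 5.06%, 6.61%, 6.08% and 0.741%, after 398, 54, 66, 73, 1189 and 1420 shallower cells were left out in the same order. At equal depth the reticular-like class thus remained above these classes.

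Against mural-like cells, which wrap vessels as reticular cells do, the Cp level of reticular-like cells was 11.8 times higher (9.45-14.9). Against fibroblast-like cells, marked by the matrix genes Aspn and Postn, it was 15.5 times higher (10.7-23.6). Of the targets compared, 16 of 105 (15.2%) were at least 4-fold higher than in mural-like cells and 14 of 107 (13.1%) than in fibroblast-like cells, while 24.8% and 29% were at least 4-fold lower, with medians over all targets of -0.05 and -0.78 on the log2 scale, against 3.56 and 3.96 for Cp. By size of fold Cp was the seventh and the fifth of these targets. With raw molecules in place of corrected ones and the classes kept, the ratios came to 6.63 and 7.26, and RSEC-adjusted molecules, which have passed only the first of 2 error corrections, gave 4.98 and 5.44. Correction removed a larger part of Cp than of the panel, since 27.3% of raw Cp molecules in the adult library were kept against 35.9% of those of all targets. The part kept also differed between classes. In reticular-like cells 6258 of 17219 raw Cp molecules remained, against 80 of 439 in mural-like, 27 of 185 in fibroblast-like and 456 of 4658 in osteoblast-like cells. Correction thus took relatively more Cp from the compared classes, and the ratios were larger after it. Of the mural-like cells 187 of 330 also held 5% or more of another class's markers, and without such cells the ratio to mural-like cells was 16.8.

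Against osteoblast-like cells, the matrix-forming cells of bone, the Cp level of reticular-like cells was 21.3 times higher (19.4-23.5), and 65 of 108 targets (60.2%) were at least 4-fold higher in the same comparison while 9.26% were at least 4-fold lower, with a median of 2.51 on the log2 scale against 4.41 for Cp. A ratio past 4-fold here is therefore the common case. The 410 osteoblast-like cells were the deeper class, with a median of 3637.5 molecules per cell, and osteocalcin transcripts filled most of the molecules of the deepest of them. The ratio fell to 5.01 when levels were taken per molecule outside all marker lists, to 3.28 when every cell counted equally, and to 2.01 when Cp molecules per cell were compared, the means being 2.23 in reticular-like and 1.11 in osteoblast-like cells. With RSEC-adjusted molecules it was 4.20 when cells were placed in classes anew, which made 694 cells osteoblast-like, and 4.39 when the classes were kept.

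Cp in osteoblast-like cells changed along depth. In the shallowest of 4 equal groups, with 60 to 599 molecules per cell, osteocalcin transcripts made up 35.9% of molecules and Cp was at 48.8 (40.4-58.4) per 10000. In the next, with 606 to 3580 molecules and osteocalcin at 78.2%, Cp was at 11.6 (10.1-13.2). In the third it was at 1.20 (0.927-1.52) with osteocalcin at 90.9%, and in the deepest at 0.410 (0.298-0.551) with osteocalcin at 93.2%. The mean Cp molecules per cell were 1.17, 2.19, 0.657 and 0.427 in the same order, so the deepest cells held less Cp in number as well as per molecule. The 2269 reticular-like cells within the depth range of the shallowest group had 53.7 per 10000, a ratio of 1.10 (0.918-1.33), and in the range of the next group the ratio was 4.34 (3.79-5.01). The levels of the shallowest group were met by fewer cells: Cp was seen in 22 of its 102 cells (21.6%), against 73.4% of the reticular-like cells in that depth range, at median depths of 185.5 and 329 molecules. Of its 119 Cp molecules, 32 lay in 7 cells with over 5% of molecules from Mmp13, the collagenase of hypertrophic cartilage and newly formed bone.

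Within the adult reticular-like class Cp was spread over the cells and not held by a few. The median was 2 molecules per cell, with quartiles at 1 and 3 and a highest cell of 20, and the 10 cells with the most Cp held 2.48% of the class's Cp. No Cp was seen in 23.0% of the cells, against 18.3% if every cell had the same rate per molecule, and 18.8% and 12.6% had 2 and 3 molecules. The variance across cells was 1.78 times that expected from counting alone. Osteoblast-like cells departed further in the same direction: 72.2% had no Cp where 48.5% would be expected at an equal rate, and the variance was 9.49 times that from counting. Their 10 highest cells held 32.7% of the Cp, but these are 10 of 410 cells, against 10 of 2805 in the reticular-like class. Cp per molecule also fell along the depth of osteoblast-like cells, so an equal rate is a poor reference for them.

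**Figure D2:**
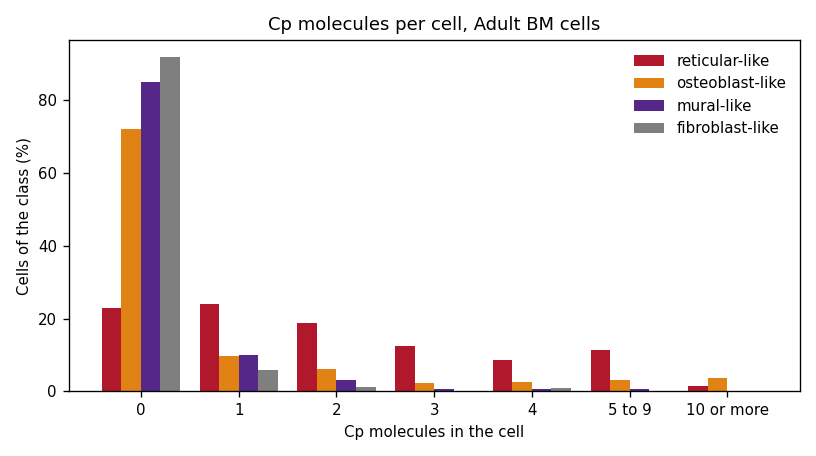
Share of the cells of 4 adult classes (vertical axis, %) by the number of Cp molecules in the cell (horizontal axis). Of reticular-like cells 23.0% had no Cp and most of the others had 1 to 4 molecules, whereas 72.2% of osteoblast-like cells had none.

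Cp per molecule changed little over the depth of reticular-like cells, apart from a lower level in the shallowest group. In 8 equal groups from shallow to deep the level was 42.5 (36.7-48.9), 54.9 (49.8-60.3), 52.8, 55.9, 55.1, 52.9, 54.5 and 49.3 (46.9-51.8) per 10000. The share of cells with a Cp UMI rose along these groups from 37.4% to 94.9%, where an equal rate would give 48.5% and 98.7%.

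Across all adult cells, Cp followed the share of Cxcl12. Cells with no Cxcl12 were at 2.72 per 10000, and the level in the following bins was 3.26 (to 1% Cxcl12), 12.7 (to 5%), 18.2 (to 10%), 25.3 (to 20%), 40.2 (to 40%) and 53.2 (51.8-54.6, above 40%). Of the 2530 cells in the highest bin, 2510 were reticular-like. Thinned to 50 molecules, the share of cells with Cp went from 1.51% in cells without Cxcl12 to 22.1% above 40%. Along this axis the make-up of the bins changes with the Cxcl12 share, so the bins were taken apart by class. Among reticular-like cells, the level was 56.7 (49.8-64.4) in 100 cells with up to 20% Cxcl12 and 41.7, 50.6, 53.6, 52.8 and 57.3 in the bins 20 to 40%, to 50%, to 60%, to 70% and above, with no steady order at the lower end. Taken per molecule other than Cxcl12, the same bins gave 64.3, 62.4, 93.3, 120, 148 and 212, so the rise depends on whether Cxcl12 stands in the total. Outside that class, osteoblast-like cells were at 2.12 without Cxcl12, 1.68 to 1% and 20.8 (17.2-24.9) to 5%, the last from 34 cells, and unassigned cells went from 12.0 (10.8-13.3) without Cxcl12 to an interval of 33.8-47.1 in the bin to 5%, from 146 molecules in 84 cells. Mural-like cells went from 2.91 without Cxcl12 to 3.11 and then 7.51 (5.03-10.8) in the bins to 5%, with fewer than 20 cells in each bin above, while endothelial-like cells stayed between 2.27 and 5.32 over the bins to 20%.

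**Figure D3:**
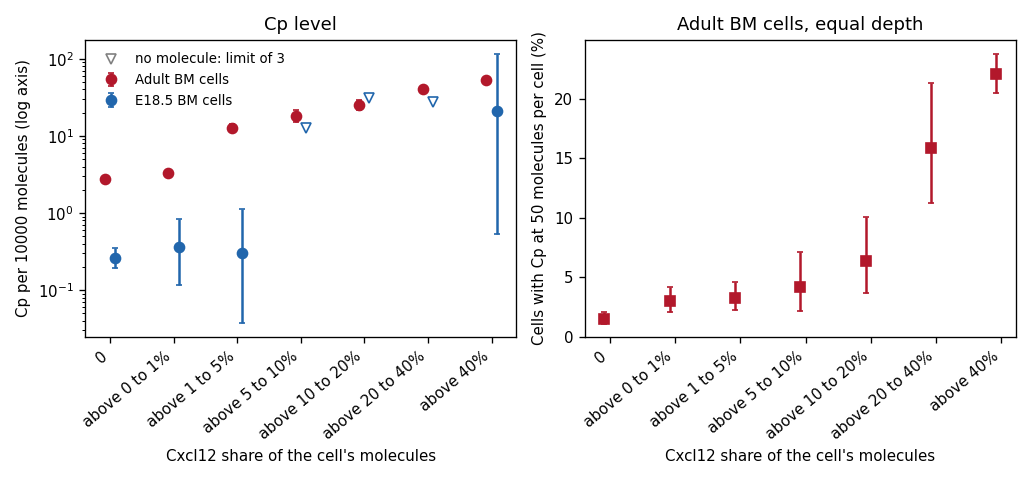
Left, Cp molecules per 10000 (log axis) by the Cxcl12 share of the cell in Adult BM cells and E18.5 BM cells; right, the share of adult cells with Cp after thinning each cell to 50 molecules, both with exact 95% intervals. The adult level goes from 2.72 in cells without Cxcl12 to 53.2 above 40%, and the fetal bins with a molecule have wide intervals.

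The number of Cp molecules for each 100 Cxcl12 molecules differed between adult classes. It was 0.947 in reticular-like, 0.891 in endothelial-like and 1.64 in haematopoietic-like cells, against 4.01 in mural-like, 7.94 in fibroblast-like, 13.6 in osteoblast-like and 28.7 in unassigned cells. Endothelial-like and reticular-like cells thus had Cp and Cxcl12 in nearly the same ratio, and 1292 of the 1452 endothelial-like cells held 5% or more of another class's markers. Kitl, a reticular-like marker here, counts towards that share. In the sorted E18.5 EC library Kitl was seen in 58.2% of endothelial-like cells, and 1086 of 3007 passed the same 5%. Such a share is therefore no measure of free RNA or joined cells. Cxcl12 was seen in 67.1% of adult endothelial-like cells (439 per 10000), against 8.75% of those of E18.5 EC (67.8 per 10000). In haematopoietic-like cells Cxcl12 was seen in 31.0% of adult cells and 0.960% of those of E18.5 BM cells. The part of free RNA or of joined cells in the Cp of endothelial-like cells was not tested.

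Per panel molecule, Lepr and Kitl divided reticular-like cells only weakly by Cp. The 2410 cells with Lepr were at 53.1 Cp per 10000 and the 395 without at 46.8, a ratio of 1.14 (1.04-1.25), with median depths of 395 and 231 molecules. Among cells with at least 200 molecules, Cp was at 47.0, 49.9, 53.9 and 61.9 from the lowest to the highest of 4 groups by Lepr share, a ratio of highest to lowest of 1.32 (1.22-1.42). Cells with Kitl were at 52.5 and the 56 without at 54.8, a ratio of 0.958 (0.745-1.25). The 4 groups by Kitl share were at 48.9, 53.4, 53.0 and 56.0, a ratio of highest to lowest of 1.14 (1.06-1.23). Taken per 10000 molecules other than Cxcl12, Cp was at 95.4, 118, 127 and 144 by Lepr share and at 96.6, 122, 126 and 138 by Kitl share. The size of both rises thus depends on whether Cxcl12 stands in the total. Kitl was read through 2 amplicons of the same transcript, whose molecules per reticular-like cell were equal in 42.2% of cells and within 1 of each other in 78.2%, so summed Kitl counts may hold the same molecules more than once. Outside the reticular-like class, adult cells with Lepr were at 8.91 against 3.27 without (ratio 2.72), and cells with Kitl at 7.47 against 2.78 (2.68).

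**Figure D4:**
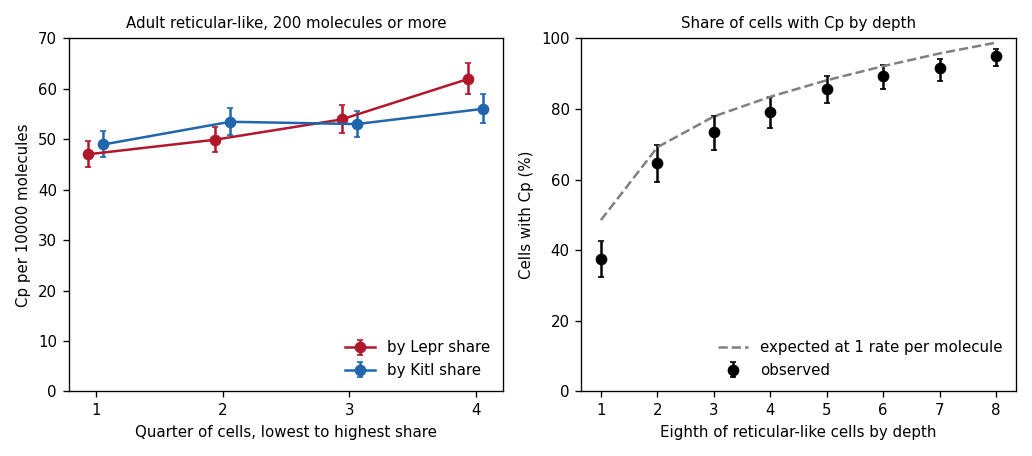
Left, Cp molecules per 10000 in adult reticular-like cells of at least 200 molecules, in 4 equal groups by Lepr or Kitl share; right, the share of reticular-like cells with Cp in 8 equal groups by depth, with the share expected at 1 rate per molecule as a dashed line. Bars are exact 95% intervals. Cp goes from 47.0 to 61.9 with the Lepr share and from 48.9 to 56.0 with the Kitl share.

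Among panel targets, those whose levels were most like Cp over 19 groups of class and library with at least 20 cells were Prg4 (Pearson's r 0.753), Cxcl12 (0.732), Wnt4 (0.70), Esm1 (0.698) and Adipoq (0.698). The values for Esm1 and Adipoq rest on 2 and 1 molecules in the adult reticular-like class. Over 2805 adult reticular-like cells the targets reported as closest were Lepr (0.208), Cxcl12 (0.183), Fbln5 (0.163) and Mgp (0.138), and the lowest were the endothelial genes Pecam1 (-0.252), Kdr (-0.243) and Sema3g (-0.207). These points share 1 library, and the correlation of Cp with log2 depth over the same cells was 0.311, above each of them. Of a list of 33 genes of the reticular and fat lineage and of iron handling, 5 had values in these libraries (Cxcl12, Lepr, Kitl, Esm1 and Ptn). Those that work beside Cp in iron export, Slc40a1, Heph and Trf, and the fat genes Pparg, Lpl and Plin1 are not analysed here. In total 8 targets were at least 4-fold higher in reticular-like cells than in each of the 3 other stromal classes, namely Cp, Cxcl12, Lepr, Fzd5, Fzd9, Mmp13, Spp1 and Wnt4. Cxcl12 and Lepr are markers that placed cells in the class. Against osteoblast-like cells Cp falls under 4-fold when cells are weighted equally, counted per cell or matched to the depth of the shallowest osteoblast-like group (1.10). In the depth range of the next group the ratio was 4.34 (3.79-5.01).

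In fetal marrow there were few cells in which the reticular comparison could be made. E18.5 BM cells held 8 reticular-like cells with 1457 molecules, of which 1 was Cp, a level of 6.86 (0.174-38.2). The ratio to adult reticular-like cells was 0.131 (0.00331-0.728), resting on that molecule. In the same comparison 6 of 102 targets (5.88%) were at least 4-fold lower and 60.8% at least 4-fold higher. For these shares a target with 0 fetal molecules was set to 3, a level of 20.6 per 10000 in this class. Targets never seen in the fetal class could thus count as higher, as Wnt10a did with 0 fetal and 4 adult molecules. The 60.8% is therefore no measure of higher fetal levels. In the 5 fetal reticular-like cells without another class's markers there was 0 Cp, with an upper bound of 0.613 on the ratio. Fetal fibroblast-like cells held 1 Cp molecule in 1148 cells, a ratio to adult of 0.00981 (0.00024-0.0595). Fetal mural-like cells held 0 in 121 cells, and the interval of the ratio to adult reached up to 0.169. Fetal endothelial-like cells, with 1 molecule, had 0.0628 (0.00157-0.360) and unassigned cells 0.124 (0.0863-0.174) of the adult level. Haematopoietic-like cells, which serve as the background, had 0.0246 (0.00273-0.106), from 2 fetal and 15 adult molecules. Lower fetal Cp was thus seen in classes other than the reticular one, the background class among them. The 3007 endothelial-like cells of E18.5 EC held 4 Cp molecules, at 0.146 (0.0398-0.374) per 10000. For these class ratios the share of all targets that were lower was not taken, and free RNA on the adult side was not tested. In osteoblast-like cells the fetal over adult ratio was 1.15 (0.139-4.19), from 2 molecules in 1 of 10 fetal cells, and in chondrocyte-like cells 2.06 (0.916-4.09). Over all fetal BM cells, the level of cells with Lepr was 21.5 times (11.7-38.7) that of cells without it. The 126 cells with Lepr held 21 of the 51 Cp molecules, and median depths were 245.5 and 96 molecules. The ratio for Kitl was 1.34 (0.574-2.79). Of these 51 molecules 1 lay in a reticular-like cell and 35 in unassigned cells. Both ratios thus rest mainly on cells outside the reticular-like class. Fetal cells with no Cxcl12, 12044 of 12844, held 43 of the 51 molecules at 0.264 (0.191-0.356) per 10000, and the bins with up to 1% and up to 5% Cxcl12 were at 0.358 (0.116-0.836) and 0.308 (0.0372-1.11), within each other's intervals.

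Cells outside the reticular class that carried Cp were examined after their values had been seen, by their leading genes Mmp13 and Prg4. Mmp13 encodes a collagenase of hypertrophic chondrocytes and bone-forming cells, and Prg4 encodes lubricin, which coats joint surfaces. Outside the reticular-like class, 113 adult cells with over 5% Mmp13 held 398 Cp molecules at 35.4 (32.0-39.0) per 10000, against 2.94 in the other cells, a ratio of 12.1 (10.8-13.5). Pooled, they reached 0.674 (0.607-0.746) of the reticular-like level with Cxcl12 at 112 and Lepr at 2.05 per 10000, and 79 of them were unassigned. The 8 osteoblast-like ones were at 170 (126-226). The 79 unassigned ones were at 40.3 (36.1-44.8), or 51.8 with every cell weighted equally. Thinned to 50 molecules, 29.1% (19.4-40.4) of these 79 had Cp, against 21.9% (20.4-23.5) of reticular-like cells. The other classes, of 2 to 16 such cells each, were at 1.44 to 36.6. In fetal marrow 89 such cells held 42 of the 50 Cp molecules outside the reticular-like class, at 4.06 against 0.0462 in the rest, a ratio of 88.0 (40.8-217). Of the 28 fetal cells with Cp, 24 had over 20% of molecules from Spp1, the bone matrix protein osteopontin, 21 had over 5% Mmp13 and 21 had Panx3, a channel of the osteochondral lineage. Among cells with over 5% Mmp13 outside the reticular-like class, the fetal Cp level was 0.115 (0.0815-0.158) of the adult one. The fetal and adult cells so chosen differed in make-up. Col10a1, a chondrocyte-like marker here, was at 797 per 10000 in the fetal and 83.9 in the adult ones. Panx3 was at 63.8 and 22.4, and Cxcl12 at 13.5 and 112, in the same order. The share of all targets that were lower was not taken. Within reticular-like cells Cp was level over the same Mmp13 bins, at 54.5, 51.1, 51.3, 50.2 and 56.1.

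**Figure D5:**
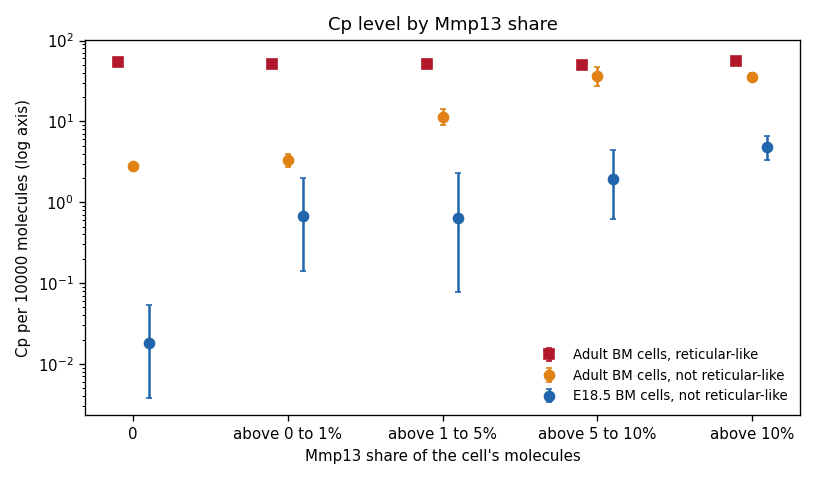
Cp molecules per 10000 (log axis) by the Mmp13 share of the cell, for adult reticular-like cells, other adult cells and fetal cells outside the reticular-like class, with exact Poisson 95% intervals. Reticular-like cells stay between 50.2 and 56.1, other adult cells go from 2.78 to 35.2, and fetal cells from 0.0181 to 4.79.

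The unassigned adult cells, whose level of 15.3 was the next below the reticular-like one, held their Cp mostly in cells led by Prg4 or Mmp13. Those with over 50% of molecules from Prg4 were 238 cells holding 691 Cp molecules (61.9% of the Cp of unassigned cells), at 13.5 (12.5-14.5) per 10000 with Cxcl12 at 9.10 and Lepr at 0.117. Those with over 5% Mmp13 were 79 cells holding 339 molecules, at 40.3. The remaining 392 cells were at 6.46 (5.18-7.97). Across all unassigned cells, 20 had over 40% Cxcl12 without Lepr or Kitl and were at 39.9 (21.2-68.2), from 13 molecules.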

How the data were processed

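The authors deposited unnormalized counts of reads and molecules for every amplicon of a cell. Molecules come in 3 forms: raw, corrected for substitution errors (RSEC), and then filtered by the distribution of reads (DBEC). The file headers name release 1.8 of the BD Rhapsody targeted pipeline and the methods another release, and the labels give mm10. DBEC-adjusted molecules were summed per target. Cells needed at least 20 molecules from 5 targets. A cell took the class whose listed markers held the largest share of its molecules, if at least 5%, 3 molecules and 2 different targets; others were unassigned. No doublet caller was run, since the panel is small; cells with at least 5% of markers of another class were left out in an alternative. Ratio intervals were exact conditional binomial and shares of cells exact Clopper-Pearson, at 95%. Targets were called at 4-fold in either direction. Thinning used seed 1. Named genes were both members, the axes Cxcl12, Lepr and Kitl, a list of 33 genes, and the 5 targets most correlated with each member; the least correlated targets and the Mmp13, Prg4, Spp1 and Panx3 levels were chosen after values were seen. Of the most correlated targets, 1 is not reported here. Members, lists and classes were chosen with earlier results of these data known. The ratio script was checked on simulated counts. Software was scipy 1.17.1 with numpy 2.4.6, pandas 2.3.3 and Python 3.11.15.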

Additional observations from a re-analysis of the deposited data

Results flagged for a closer look

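Cp molecules were also counted in classes that the stromal comparisons do not use, above the limit that a count of 0 allows. In Adult BM cells these were 77 molecules in endothelial-like, 15 in haematopoietic-like, 94 in chondrocyte-like and 1117 in unassigned cells. In E18.5 BM cells they were 9 in chondrocyte-like and 35 in unassigned cells, and in E18.5 EC 4 in endothelial-like cells. Of the adult haematopoietic-like cells 988 of 1555 and of the adult endothelial-like cells 1292 of 1452 held 5% or more of another class's markers. That share is no measure of joined cells or free RNA, and the part of those cells in these counts was not tested.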

How the results depend on the processing

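The Cp ratio of adult reticular-like to osteoblast-like cells (21.3) came to 4.20 with RSEC-adjusted and 7.41 with raw molecules (4.39 and 7.41 with the classes kept), 25.3 at a class threshold of 10% and 31.4 without mixed cells. With every cell weighted equally it came to 3.28, and with 3 further alternatives to 5.01 (per molecule outside all class lists), 2.01 (molecules per cell) and 1.10 (both classes within the depth of the shallowest osteoblast-like cells). The ratio to fibroblast-like cells (15.5) came to 5.27 and 5.76 with RSEC-adjusted and raw molecules (5.44 and 7.26 with the classes kept) and 31.6 per molecule outside the lists. The ratio to mural-like cells (11.8) came likewise to 4.23 and 5.54 (4.98 and 6.63 with the classes kept), 16.8 without mixed cells, 9.23 outside the lists and 9.20 as molecules per cell. The fetal over adult reticular-like ratio (0.131) came to 0 without mixed cells, where no fetal Cp molecule was left. Kept classes, molecules outside the lists, molecules per cell and matched depth were chosen after seeing the data. The other 18 values differed from the main ones by less than counting error, and none changed direction. No ratio could be given for Adipoq in any of 44 cases, with at most 1 molecule in a class. Leaving out replicates could not be done with 1 library per group. No paired analysis was possible because each group is 1 library and the result comes from no test. Counting error is the only error these values carry, and the spread between animals is unknown.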
